A study of Mus musculus with 4 samples.

Results

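Mitotic cyclins and the kinases and phosphatases that bring cells into mitosis were followed at the transcript level in mouse female germline stem cells (FGSCs), cells taken from the ovary and kept in culture. The 10 genes were chosen by name, with earlier results of these data known. They were cyclins (Ccna2, Ccnb1, Ccnb2), the kinase that they activate (Cdk1) and other kinases of mitotic entry and mitosis (Plk1, Aurka, Aurkb). The rest were the enzymes that switch Cdk1 off and on (Wee1, Cdc25b, Cdc25c). All 10 were among the 12701 genes of the deposited table. RNA sequencing (RNA-seq) libraries from total RNA were compared between FGSCs carrying a lentiviral control short hairpin RNA (shNC) and FGSCs carrying a hairpin that targets Gm26917, a long non-coding RNA (shGm26917), with 2 libraries per group. The labels name no other allele, drug or time point, and by the methods infected cells were selected with an antibiotic. The sources do not say which hairpin the sequenced cells carried or whether libraries of 1 group were grown apart. P-values therefore measure the spread between these libraries, which may be technical. Values are in CPM, read counts scaled to a common library size and not corrected for gene length.

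Entry into mitosis is driven by Cdk1 bound to a cyclin of type A or B. Wee1 holds Cdk1 inactive by phosphorylating it, and the Cdc25 phosphatases remove these phosphates, while Plk1 and Aurora A favour the switch by activating Cdc25 and by promoting the loss of Wee1. In cycling cells the messages of most of these genes are low in G1 and climb through G2, and the proteins are then degraded as the cells leave mitosis. In germline stem cells the same machinery serves the mitotic divisions that maintain the population.

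The listed genes added up to between 755159 and 771715 CPM per library. From the low values, 1 read was worth about 0.0557 to 0.0778 CPM, although only 33.7% to 68.0% of values under 2 CPM lay within 0.02 of a whole multiple of that step, so depth is approximate. Cdc25c, the mitotic gene with the fewest reads, had about 177 in its lowest library, a counting error of about 7.51%. In these libraries the label of germ stem cells was not borne out by marker RNA, since 13 of 14 germ cell markers were not listed. All listed genes reached 1.003 CPM in their second-highest library, so a marker below that level may still be present. The study showed germline markers in its FGSCs by RT-PCR (Oct4, Ddx4, Fragilis and Blimp1) and by immunofluorescence (DDX4 and OCT4). Cpa3 and Gata2, from the mast cell list, stood at 370 to 823 CPM. Of the 10 mast cell markers 7 were not listed, and Ms4a2 stood at 0 to 2.29 CPM. Of 10 fibroblast markers 8 were listed, at a summed 379 to 446 CPM per library. These lists do not settle what the cells are, and the name FGSCs is used here only as the labels give it. Gm26917 itself, on chromosome 17, did not pass and stood at 155 and 157 CPM under shNC and 136 and 104 CPM under shGm26917 (log2 fold change -0.39, adjusted p = 0.0696). It was called without shGm26917 replicate 1 (-0.58, adjusted p = 0.000278) and was -0.19 without shGm26917 replicate 2 (adjusted p = 0.207). Its neighbour on chromosome 17, Gm42418, fell from 2882 and 3462 CPM in shNC to 729 and 687 CPM under shGm26917 (log2 fold change -2.16, adjusted p = 5.57e-05). The study checked its Gm26917 knockdown by RT-qPCR, which these libraries do not measure.

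The promoters of 6 of the 10 genes, Ccnb1, Ccnb2, Cdk1, Plk1, Aurka and Cdc25b, were matched in a RefSeq table of 32851 promoters on GRCm38.p6. Each ran from 250 bases before to 50 bases after the RefSeq start of the gene. Ccna2, Aurkb and Wee1 had no entry, and Cdc25c is not shown. The others are shown because genes of this class are known for promoters that combine CCAAT boxes, bound by the factor NF-Y, with a cell cycle genes homology region (CHR), bound by the MuvB complex. Both strands were searched for CHR (TTTGAA or TTTAAA), the CCAAT box (CCAAT) and the E2F site (TTTCCCGC, TTTGGCGC, TTTCGCGC or TTTGCCGC), and no matches of different motifs overlapped in these 6 promoters. The 120 bases from position -110 to position 10 follow, where 1 is the RefSeq start of the gene and -1 the base before it. This start can differ from the gene limits given further below, which are those deposited. The limits of Ccnb1 (up to 100786570) reach upstream of its position 1, and those of Aurka (up to 172370535) do not reach its printed window. Bases are 5′ to 3′ on the strand of the gene, and capitals mark the motif matches.
Ccnb1, chr13:100786477-100786596, minus strand: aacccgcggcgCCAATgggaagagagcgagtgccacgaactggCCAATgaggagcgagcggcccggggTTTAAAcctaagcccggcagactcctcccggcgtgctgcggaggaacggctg
Ccnb2, chr9:70421545-70421664, minus strand: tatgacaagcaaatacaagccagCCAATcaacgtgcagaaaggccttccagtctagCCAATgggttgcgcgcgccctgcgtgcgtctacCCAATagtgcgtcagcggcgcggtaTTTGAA
Cdk1, chr10:69352903-69353022, minus strand: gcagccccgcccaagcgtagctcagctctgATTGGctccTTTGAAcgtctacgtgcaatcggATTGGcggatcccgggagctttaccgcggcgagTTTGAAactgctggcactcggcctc
Plk1, chr7:122159325-122159444, plus strand: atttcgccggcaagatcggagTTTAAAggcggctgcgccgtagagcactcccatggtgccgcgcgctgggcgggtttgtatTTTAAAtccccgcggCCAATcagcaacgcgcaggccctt
Aurka, chr2:172370561-172370680, minus strand: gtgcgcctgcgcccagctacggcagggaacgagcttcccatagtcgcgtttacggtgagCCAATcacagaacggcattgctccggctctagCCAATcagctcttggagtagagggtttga
Cdc25b, chr2:131186838-131186957, plus strand: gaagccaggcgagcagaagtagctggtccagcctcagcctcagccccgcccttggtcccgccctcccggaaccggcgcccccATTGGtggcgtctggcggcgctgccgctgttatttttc

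In the full 300 bases, the CCAAT box was present in 6 of these 6 promoters and in 37.4% of all promoters in the table. CHR was present in 5 of 6, all but Cdc25b, and in 27.6% of all promoters. The motifs occurred together in 5 of 6 and in 10.7% of all promoters. An E2F site was found in 1 of 6, that of Cdk1, at -131 to -124, and in 2.26% of all promoters. The Ccnb2 promoter held 3 CCAAT boxes at -87, -54 and -21. Of its 2 CHR matches, 1 at -167 to -162 lay upstream of the printed window and 1 at 5 to 10 lay just past the start. The CHR matches of Aurka, at 18 and 33, lay further downstream than the printed window, as did 1 of the 3 in Plk1, at 31. A match describes these letters only, and no binding was measured here.

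**Figure D1:**
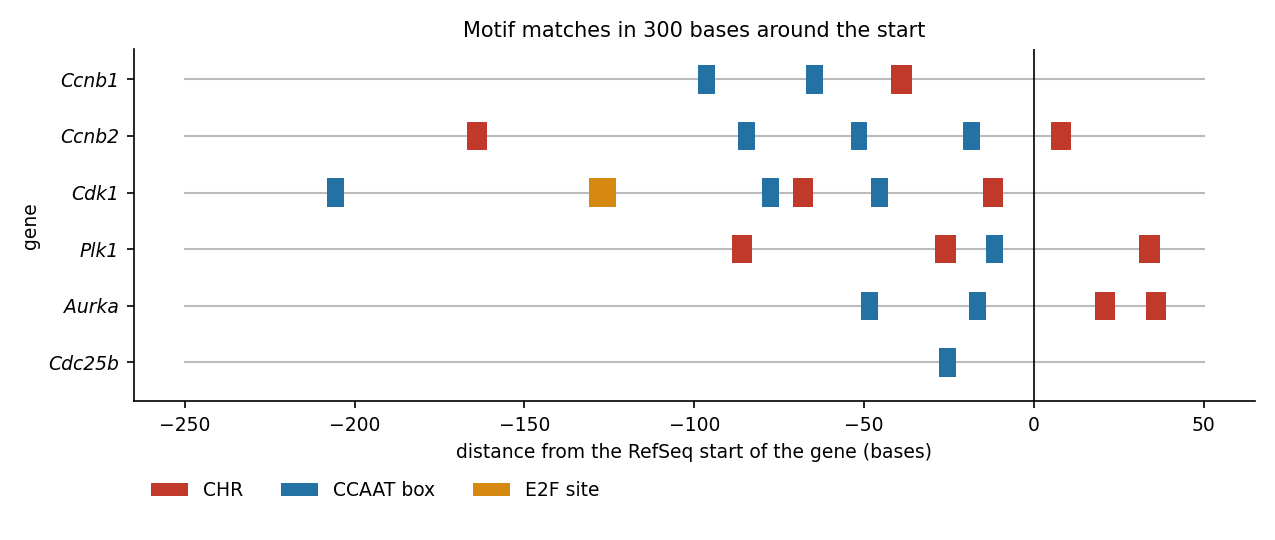
Positions of motif matches in the promoters of 6 mitotic genes. The x axis gives the distance in bases from the RefSeq start of the gene, each row is 1 gene, and coloured blocks mark CHR, CCAAT box and E2F site matches. A CCAAT box lies upstream of the start in 6 of 6 genes, and CHR is matched in 5 of 6.

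Of the 10 genes, 6 rose in shGm26917, 0 fell and 4 did not pass (limma, adjusted p under 0.05). Across all genes tested, 11.6% were called higher and 11.5% lower. The 10 genes, and the lists further below, were chosen with earlier results of these data known. The counts and medians are therefore a description and no test of enrichment. The genes that rose were Ccna2, Ccnb1, Ccnb2, Plk1, Cdc25b and Cdc25c, with folds of 1.29 to 1.47. Aurka, Aurkb, Cdk1 and Wee1 did not pass, with Aurka at an unadjusted p of 0.0365 (limma). The median log2 fold change of the 10 genes was 0.38, beside -0.006 over all genes. The libraries of the groups did not overlap for 8 genes that were higher and for 1 that was lower, against 31.5% and 32.7% of all genes. At the thresholds of the study (unadjusted p no higher than 0.05, fold no lower than 1.5), 0 of 10 genes were called, while 3.25% of all genes were called higher. In bulk RNA, a change in the number of cells in G2 or mitosis and a change in RNA per cell cannot be told apart.

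**Figure D2:**
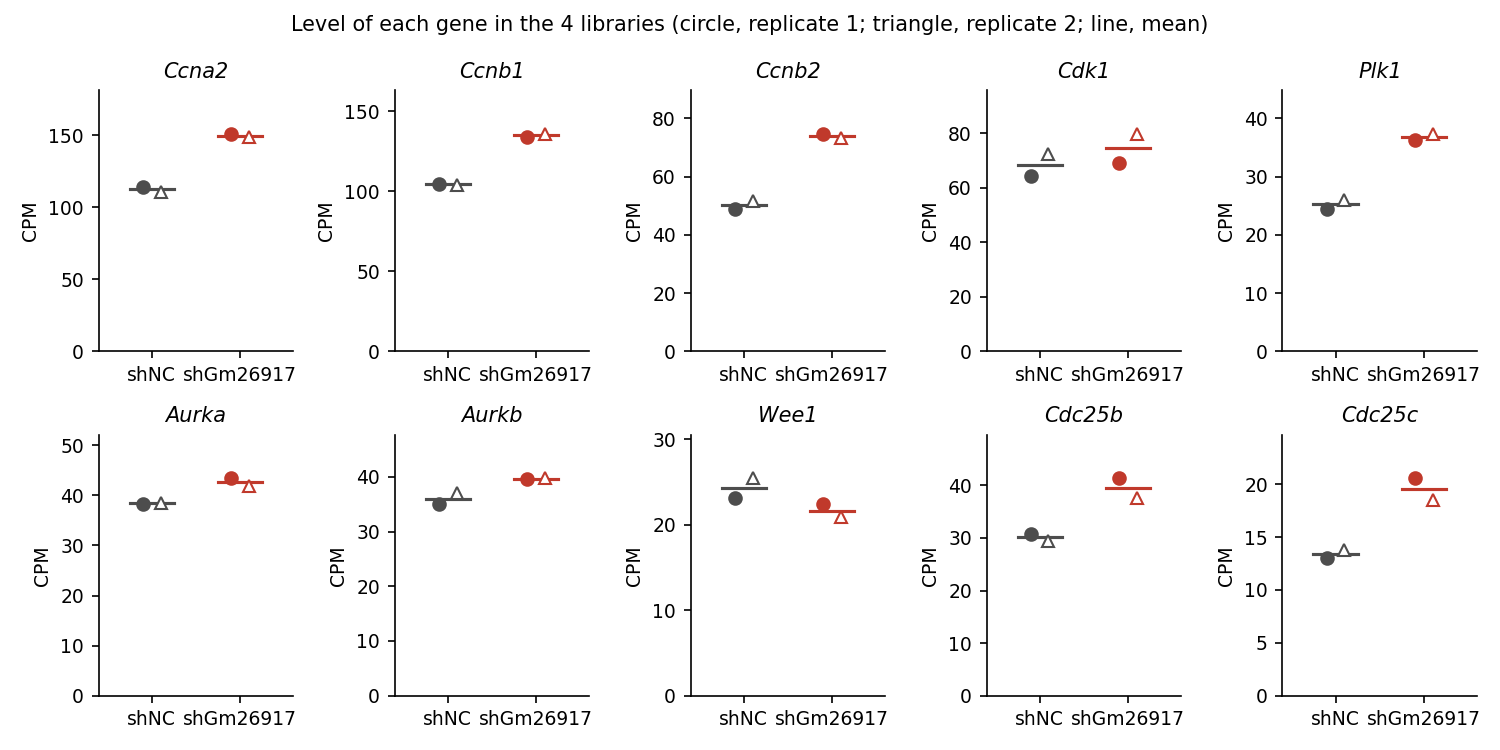
Level of each of the 10 genes in CPM (y axis, from 0) in the 2 shNC and 2 shGm26917 libraries (x axis). Circles are replicate 1, triangles replicate 2 and lines group means. The groups are apart for every gene but Cdk1, whose libraries stand at 64.2 and 72.5 CPM with shNC, against 69.1 and 79.7 CPM with shGm26917.

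The cyclins rose together. Ccna2 (chromosome 3, 36564865 to 36572150, minus strand, mm10) encodes cyclin A2, which works in S phase with Cdk2 and in G2 with Cdk1. It stood at 114 and 111 CPM in the shNC libraries and at 151 and 148 CPM in the shGm26917 libraries. Both shGm26917 libraries lay above both shNC libraries, and the gap between the groups, 34.5 CPM, was larger than the SD of either group (2.31 and 1.67 CPM, n = 2). This gave a log2 fold change of 0.41 (95% limits 0.29 and 0.53, adjusted p = 0.00251). At its 3′ end Ccna2 overlaps Exosc9, a gene of the RNA exosome on the opposite strand, with 431 bases shared between transcripts (the sources do not say if reads were counted by strand). Exosc9 had 22.5 and 21.2 CPM under shNC and 22.9 and 24.6 CPM under shGm26917 (log2 fold change 0.11, adjusted p = 0.325). The part of shared reads in the Ccna2 values was not tested.

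Ccnb1 (chromosome 13, 100778650 to 100786570, minus strand) encodes cyclin B1, the main partner of Cdk1 in mitosis. It had 105 and 104 CPM with shNC, against 134 and 136 CPM with shGm26917. The groups were 29.3 CPM apart, beside SDs of 0.401 CPM in shNC and 1.19 CPM in shGm26917. The change on the log2 scale was 0.37 (interval at 95% from 0.25 to 0.49, adjusted p = 0.0033). The study reported less cyclin A2 and cyclin B1 protein after Gm26917 knockdown, the opposite direction to the transcripts here. By flow cytometry it reported fewer cells in G0/G1 and more in S phase. These libraries do not measure protein, and the difference was not tested. Transcripts of 5 other genes, Ccnb1-ps, Gm12856, Gm8416, Gm4870 and Gm7483, share at least 383 bases with Ccnb1 at identities of 94.4% to 99.2%. Reads shared with such copies are split by estimation, and these copies were not analysed here.

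Ccnb2 (chromosome 9, 70407692 to 70421547, minus strand) encodes cyclin B2, a B-type cyclin found largely at the Golgi. It had the largest change of the 10 genes, from 49.0 and 51.5 CPM in shNC to 74.6 and 73.2 CPM in shGm26917. The lower shGm26917 library was 21.8 CPM above the higher shNC library. This gave a log2 fold change of 0.55 (95% limits 0.42 and 0.69, adjusted p = 0.00126). With each library left out in turn, the change of Ccnb2 stayed between 0.52 and 0.59, that of Ccna2 between 0.39 and 0.43 and that of Ccnb1 between 0.36 and 0.38, with adjusted p of at most 0.0147 for these 3 genes.

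Cdk1 (chromosome 10, 69335146 to 69352938, minus strand), the catalytic partner of these cyclins, did not pass. It had 64.2 and 72.5 CPM under shNC and 69.1 and 79.7 CPM under shGm26917. The groups overlapped, and in each of them replicate 2 was the higher library. The change on the log2 scale was 0.12 (interval at 95% from -0.08 to 0.32, adjusted p = 0.356). Leaving out single libraries moved it between 0.018 and 0.22, with adjusted p of 0.151 to 0.937.

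The ratio of each cyclin to Cdk1 within a library was therefore followed as a description. Ratios used CPM without correction for gene length, so they do not show which gene of a pair is higher. Ccnb1 to Cdk1 was 1.63 and 1.44 in shNC and 1.94 and 1.70 in shGm26917. Ccna2 to Cdk1 was 1.77 and 1.53 in shNC and 2.18 and 1.86 in shGm26917. Ccnb2 to Cdk1 was 0.763 and 0.711 in shNC and 1.08 and 0.919 in shGm26917. Each ratio was higher in both shGm26917 libraries, by 1.19, 1.22 and 1.36 times for Ccnb1, Ccna2 and Ccnb2. Between the B-type cyclins, Ccnb2 to Ccnb1 went from 0.468 and 0.494 to 0.557 and 0.54. The ratios were not tested. With 2 libraries per group an exact two-sided permutation test cannot go below 0.333.

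**Figure D3:**
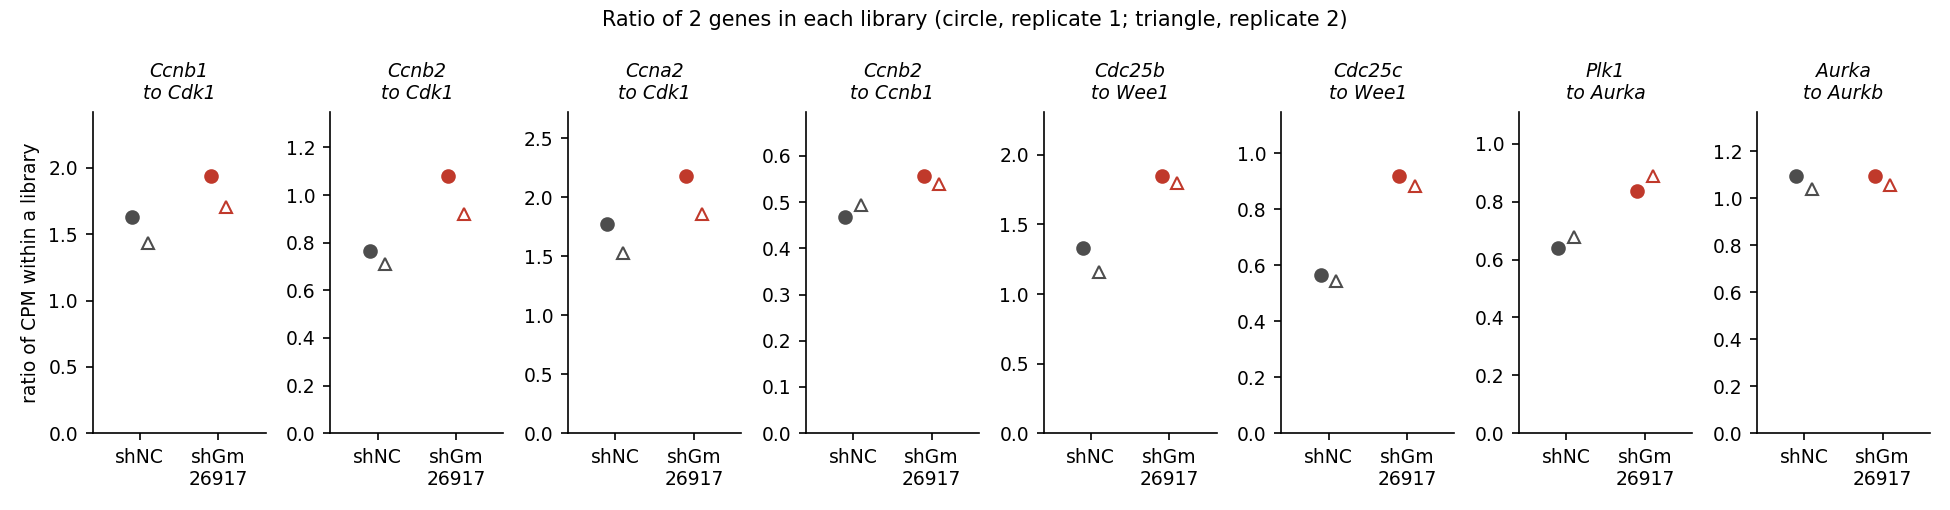
Ratio of the CPM of 2 genes within each library (y axes, from 0) in shNC and shGm26917 (x axis). Circles are replicate 1 and triangles replicate 2. The Cdc25b to Wee1 ratio is 1.33 and 1.16 in shNC and 1.85 and 1.80 in shGm26917, whereas the Aurka to Aurkb ratio overlaps between the groups.

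Among the mitotic kinases, Plk1 rose and the Aurora kinases did not pass. Plk1 (chromosome 7, 122159439 to 122169873, plus strand) encodes polo-like kinase 1, which acts from mitotic entry through spindle assembly to cytokinesis. It had 24.5 and 26.1 CPM with shNC, against 36.4 and 37.3 CPM with shGm26917. The groups were 10.3 CPM apart, with SDs of 1.11 and 0.67 CPM. This gave a log2 fold change of 0.54 (95% limits 0.38 and 0.69, adjusted p = 0.00242), second in size to that of Ccnb2. The transcript of Plk-ps1 is 93.5% identical over 1813 bases, and this gene was not analysed here. On the opposite strand Plk1 overlaps Gm44985 over 1016 bases.

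Aurka (chromosome 2, 172356190 to 172370535, minus strand) encodes Aurora A, the centrosome kinase that activates Plk1. It had 38.4 and 38.5 CPM under shNC and 43.4 and 41.9 CPM under shGm26917. Both shGm26917 libraries were higher, by a gap of 3.48 CPM, and the log2 fold change of 0.15 (95% interval 0.01 to 0.29) had an adjusted p of 0.109. Aurkb (chromosome 11, 69045647 to 69051664, plus strand) encodes Aurora B, the kinase of the chromosomal passenger complex. It had 35.1 and 37.0 CPM with shNC, against 39.7 and 39.8 CPM with shGm26917, with a log2 fold change of 0.14 (95% interval -0.006 to 0.28, adjusted p = 0.15). Whether Plk1 and the Aurora kinases differed in their change was not tested. The Plk1 to Aurka ratio was 0.638 and 0.677 in shNC and 0.837 and 0.889 in shGm26917, and the Aurka to Aurkb ratio was 1.09 and 1.04 against 1.09 and 1.05.

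Of the enzymes that set Cdk1 phosphorylation, both Cdc25 phosphatases rose and Wee1 did not pass. Cdc25b (chromosome 2, 131186949 to 131198497, plus strand) encodes a phosphatase that starts Cdk1 activation at the centrosome. It had 30.8 and 29.4 CPM under shNC and 41.4 and 37.6 CPM under shGm26917. The groups were 6.73 CPM apart, and the shGm26917 libraries differed more from each other (SD 2.7 CPM) than the shNC libraries did. The change on the log2 scale was 0.38 (interval at 95% from 0.22 to 0.55, adjusted p = 0.0101). Cdc25b overlaps Spef1 on the opposite strand over 334 bases. Without shGm26917 replicate 1, which leaves 1 library in that group, the log2 fold change was 0.31 and Cdc25b was not called. It was called in 12 of the 13 alternative fits, only just so without the variance trend (adjusted p = 0.0495). Losing the call in so small a fit does not by itself show that it depended on that replicate.

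Cdc25c (chromosome 18, 34732993 to 34751533, minus strand) encodes the phosphatase that Plk1 and Cdk1 activate in a feedback at mitotic entry. Cdc25c stood at 13.1 and 13.8 CPM with shNC, against 20.6 and 18.5 CPM with shGm26917. The groups were 4.67 CPM apart. This gave a log2 fold change of 0.52 (95% limits 0.31 and 0.73, adjusted p = 0.0071), and it was between 0.45 and 0.60 with single libraries left out (adjusted p of at most 0.0329). On the opposite strand Cdc25c overlaps Gm3550, with 623 bases shared between transcripts.

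Wee1 (chromosome 7, 110122046 to 110143286, plus strand), the kinase that restrains Cdk1, was the only one of the 10 genes with a lower mean in shGm26917. It had 23.1 and 25.4 CPM under shNC and 22.4 and 20.9 CPM under shGm26917. The groups were only 0.731 CPM apart, less than the SD of either group (1.65 and 1.04 CPM). Wee1 did not pass, at -0.16 on the log2 scale (95% limits -0.35 and 0.03, adjusted p = 0.193). An antisense gene, 1600010M07Rik, overlaps all 21241 bases of Wee1. The Cdc25b to Wee1 ratio was 1.33 and 1.16 in shNC and 1.85 and 1.80 in shGm26917. The Cdc25c to Wee1 ratio was 0.565 and 0.543 in shNC and 0.919 and 0.884 in shGm26917. These were the largest shifts among the 8 ratios followed, 1.46 and 1.63 times, with the groups apart in each.

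**Figure D4:**
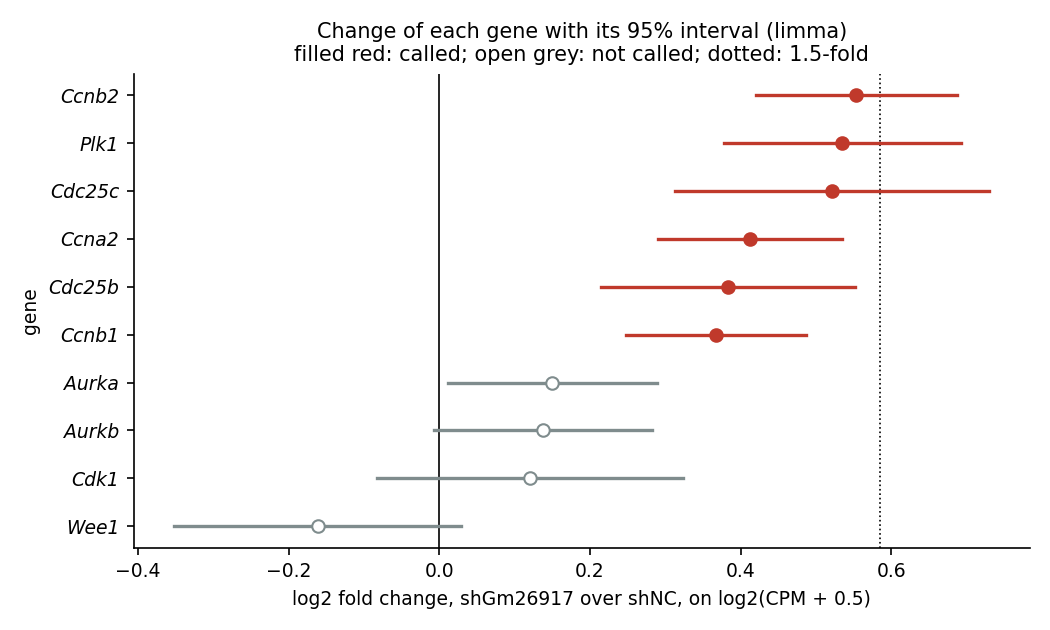
Log2 fold change of the 10 genes (x axis, shGm26917 over shNC on the log2(CPM + 0.5) scale) with 95% intervals from limma. Filled red points are called and open grey points are not, and the dotted line marks a fold of 1.5. The 6 called genes lie between 0.37 and 0.55, and Wee1 alone lies below 0.

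Apart from the ratios, which used CPM without length correction, levels of different genes were compared after division by the length of all annotated exons. This is approximate since several isoforms are joined. In shNC the cyclins led, with Ccnb2 at 32.8, Ccna2 at 27.5 and Ccnb1 at 24.8 CPM per kb. Aurka (15.2), Cdk1 (13.8), Aurkb (12.2) and Plk1 (11.5 CPM per kb) followed, then Cdc25b (8.08), Wee1 (7.10) and Cdc25c (2.73 CPM per kb). Neighbours in this order did not overlap between the 2 shNC libraries. In shGm26917 the order was the same but for Plk1, which at 16.7 CPM per kb stood above Cdk1 (15.1 CPM per kb) and overlapped with Aurka (16.9 CPM per kb).

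Partners and relatives of these genes came next. Counts in this list and those below are to be read beside 11.6% of all genes called higher and 11.5% lower. Of 21 on the list, 18 were listed in the table, of which 6 rose, 2 fell and 10 did not pass, with a median log2 fold change of 0.20. Tpx2, which activates Aurora A on the spindle, rose from 152 and 147 CPM to 206 and 198 CPM (log2 fold change 0.43, adjusted p = 0.00247). Bora, the cofactor with which Aurora A activates Plk1, rose from 22.8 and 25.4 CPM to 36.0 and 36.3 CPM (0.58, adjusted p = 0.00261). Both cofactors of Aurora A thus passed while Aurka itself did not, a difference between genes that was not tested. Plk3, a polo-like kinase of stress responses, fell from 25.2 and 29.7 CPM to 18.5 and 16.9 CPM (-0.62, adjusted p = 0.00524).

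The Greatwall branch, which shields Cdk1 substrates by inhibiting the phosphatase PP2A-B55, had 9 of 11 genes listed and 0 called in either direction, with a median log2 fold change of -0.10. Its lowest p belonged to the PP2A subunit genes Ppp2cb (0.23, adjusted p = 0.0568), Ppp2r1a (-0.17, 0.0702) and Ppp2r2d (-0.17, 0.0838). Ppp2cb passed with median-ratio scaling (adjusted p = 0.0494) and without shNC replicate 2 (0.0111), and Ppp2r1a and Ppp2r2d also passed without that library (0.0394 and 0.0411). Of 21 genes of the anaphase-promoting complex and its regulators, which degrade the mitotic cyclins, 2 rose, 1 fell and 18 did not pass (median 0.01). Over all genes, 11.6% were called higher and 11.5% lower. Cdc20, the activator of the complex in mitosis, rose from 76.7 and 71.5 CPM to 101 and 98.8 CPM (0.43, adjusted p = 0.00311). Pttg1, which encodes securin, a substrate of the complex, had a log2 fold change of 0.50 (adjusted p = 0.00983), and Cdc27, a core subunit, fell from 175 and 165 CPM to 128 and 120 CPM (-0.46, adjusted p = 0.0029). Pttg1 was not called without the variance trend (adjusted p = 0.0572).

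Checkpoint genes delay mitosis while DNA is damaged or unreplicated. Of 17 listed of 18, 3 rose, 2 fell and 12 did not pass, with a median log2 fold change of -0.07. The shares over all genes were 11.6% higher and 11.5% lower, and no result for the list as a whole is read from these counts. Chek1, the kinase that inhibits Cdc25 proteins, fell from a mean of 34.8 CPM (SD 0.293, n = 2) to 22.8 CPM (SD 1.23, n = 2) (-0.60, adjusted p = 0.00186). Rad1, a part of the checkpoint clamp, and Chek2, the kinase downstream of ATM, rose (0.56 and 0.47, adjusted p = 0.0123 and 0.0171). The Rad1 call was lost without shGm26917 replicate 2 (adjusted p = 0.0647) and that of Chek2 without replicate 1 (0.0982).

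Of 16 regulators of mitotic gene transcription, the factors that bind or act through the CHR and CCAAT motifs shown above, 4 rose, 4 fell and 8 did not pass (median log2 fold change 0.05). Foxm1, an activator of G2/M genes, rose from 47.4 and 47.5 CPM to 60.2 and 57.0 CPM (0.30, adjusted p = 0.0111). Mybl2, which encodes B-MYB, fell from 18.4 and 17.6 CPM to 14.4 and 13.7 CPM (-0.35, adjusted p = 0.0227). Rbbp4, a MuvB subunit shared with chromatin complexes, fell from 218 and 224 CPM to 183 and 181 CPM (-0.28, adjusted p = 0.00993). Foxm1 was lost without shGm26917 replicate 1 (adjusted p = 0.0773) or the variance trend (0.0555), Mybl2 without shGm26917 replicate 1 or 2 (0.06 and 0.141), and Rbbp4 without replicate 2 (0.0639) or the trend (0.056).

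Of 24 late mitosis and cytokinesis markers, 14 rose, 1 fell and 9 did not pass (median log2 fold change 0.32), with Aspm (0.74), Kif23 (0.61) and Hmmr (0.49) lowest in p. The gene that fell was Top2a (-0.29, adjusted p = 0.0311), the topoisomerase that untangles replicated DNA, named after its values were seen, and it was not called without shGm26917 replicate 2 (adjusted p = 0.143) or the variance trend (0.101). Of 20 S phase and replication markers, 0 rose, 12 fell and 8 did not pass (median -0.37), with Mcm4 (-0.64), Mcm6 (-0.59) and Pcna (-0.46) lowest in p. The summed level of the S phase list was 1157 and 1075 CPM with shNC, against 851 and 836 CPM with shGm26917, while that of the 10 mitotic genes was 497 and 509 CPM under shNC and 632 and 633 CPM under shGm26917. As given above, the study reported more cells in S phase by flow cytometry after Gm26917 knockdown. These lists do not count cells, and the difference in direction was not tested.

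**Figure D5:**
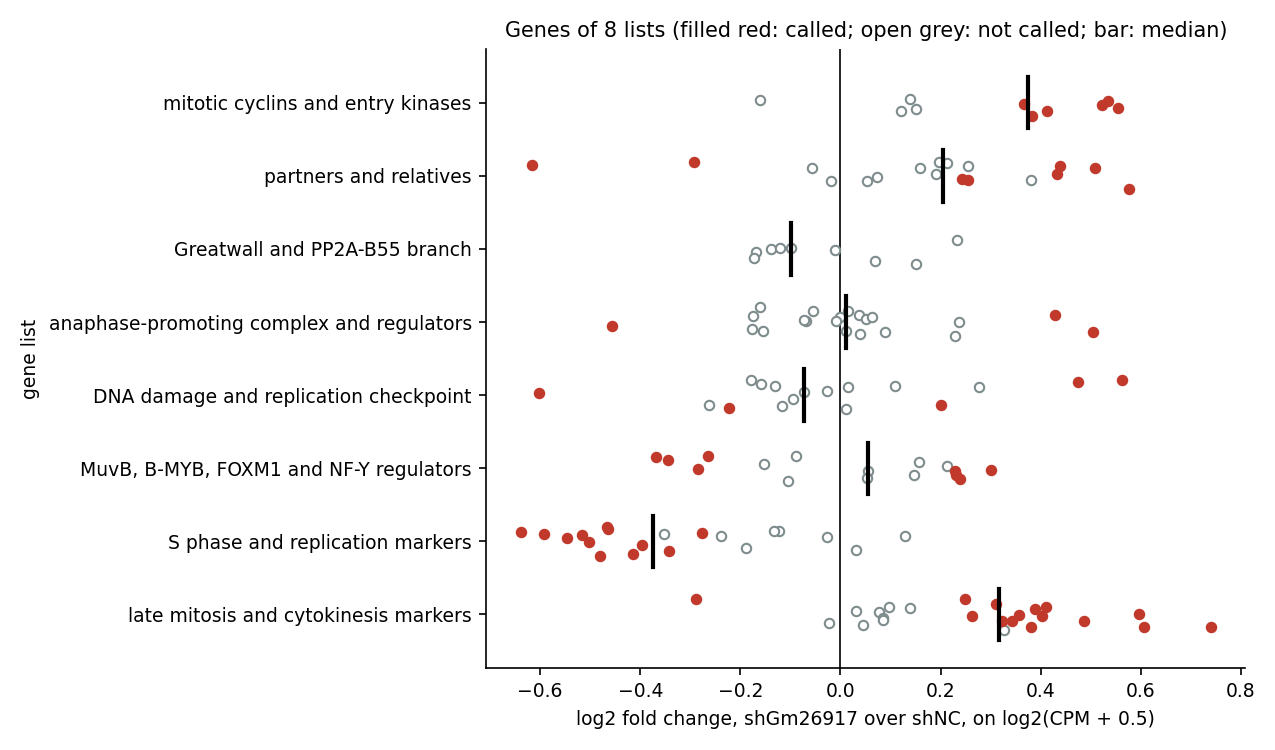
Log2 fold change (x axis, shGm26917 over shNC on the log2(CPM + 0.5) scale) of each listed gene in 8 gene lists (rows). Filled red points are called, open grey points are not, bars are medians, and vertical scatter within a row has no meaning. The medians are 0.38 for the mitotic cyclins and entry kinases, 0.32 for late mitosis markers and -0.37 for S phase markers.

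Markers of cell types were set beside these values. Of 14 germ cell markers only Tex14 was listed, at 8.40 to 12.1 CPM (log2 fold change 0.25, adjusted p = 0.251, called without shNC replicate 1 at 0.0167). Ddx4, Dazl, Pou5f1 and 10 others were not listed. Of 10 mast cell markers 3 were listed, of which Cpa3, a protease gene of mast cells, rose (490 and 541 CPM to 734 and 823 CPM) and Gata2 (477 and 467 CPM to 380 and 370 CPM) and Ms4a2 fell, while 7 were not listed. Of 10 fibroblast markers 8 were listed, with a summed level of 425 and 446 CPM with shNC, against 391 and 379 CPM with shGm26917, and 1 rose and 1 fell. Of 10 granulosa cell markers Inhba and Fst were listed and fell (summed level 44.5 and 48.4 CPM to 23.4 and 21.9 CPM), and the defining gene Foxl2 was not listed. Of 10 macrophage markers 4 were listed, of which 1 rose and 1 fell, with summed levels of 175 to 199 CPM in shNC and 178 to 183 CPM in shGm26917. Their part in the changes of the mitotic genes was not tested.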

How the data were processed

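RNA-seq libraries of FGSCs, 2 with shNC and 2 with shGm26917, were grouped by genotype label and numbered by title. Total RNA was used. Bowtie2 2.1.0, RSEM 1.2.28, edgeR and build mm10 are listed in the submitters' processing notes. The authors deposited CPM per gene and library. RSEM divides reads shared between genes by estimation. The second-highest library of every one of the 12701 genes was at 1.003 CPM or more. Whole reads could not be recovered. The authors' own columns of fold changes, p-values and change states were left out.

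Values were transformed as log2(CPM + 0.5), on which changes of low genes are understated, and the groups were compared by limma 3.58.1 (R 4.3.3) using trended, robust variance moderation. Benjamini-Hochberg adjustment covered the whole table, and genes under 0.05 were called. The fit was also run on simulated counts with the same dispersion (extra spread) for every gene and independent libraries. That setting is simpler than these data, and no support is drawn from it. The members and lists were chosen with earlier results of these data known. From each other list except cell markers, the 3 genes of smallest p are named, unless stated. Alike transcripts (90% identity, 100 bases or more) were sought in GENCODE M21 using BLAST 2.17.0. Alternatives covered the pseudocount (0.1 or 1), scaling, a filter of 5 CPM in 2 libraries, the variance model, single libraries left out, a replicate block and the thresholds of the study.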

Additional observations from a re-analysis of the deposited data

How the results depend on the processing

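Of the 10 mitotic genes, 9 kept their direction and their side of the threshold under all 13 alternative fits, and Cdc25b lost its call only without shGm26917 replicate 1 (log2 fold change 0.31). Left out in turn, single libraries gave Cdc25b log2 fold changes of 0.31 to 0.45. The number of the 10 genes called higher was 5 to 6 with single libraries left out and 0 at the thresholds of the study (unadjusted p 0.05, fold 1.5). Over all genes, that rule gave 413 higher and 477 lower, and a fit without the variance trend 878 and 874, against 1469 and 1461. Single libraries left out gave 752 to 1793 higher and 832 to 1735 lower. With a library left out, the lone library of a group is assumed to vary like the others. Under the scalings tried, the median log2 fold change of all genes was -0.0075 to 0.0082. The replicate numbers share no stated origin (correlation of deviations over genes 0.11, 2 pairs). With the replicate block, 1979 genes were higher and 2003 lower, and 6 of the 10 mitotic genes were called higher and 0 lower. The block also called Gm26917 (adjusted p = 0.0239), Ppp2cb (0.0167) and Ppp2r1a (0.0293), which the fit without it did not. Depth limits Cdc25c most.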
